A study of Mus musculus with 6 samples.

Results

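The genes described here encode nuclear subunits of the 5 complexes of oxidative phosphorylation. They were taken from the gene table by symbol, as those starting with Ndufa, Ndufb, Ndufc, Ndufs, Ndufv, Uqcr or Atp5, the Cox symbols numbered 4 to 8 and followed by a letter, and the 4 Sdh genes. Assembly factors named Ndufaf and 2 further symbols were left out by the rule. This gave 84 of 16511 genes, with 38 in complex I, 4 in complex II, 8 in complex III, 17 in complex IV and 17 in complex V. The 38 include 1 gene with a pseudogene symbol, which had too few counts for a test. The complex III subunit gene Cyc1 was not taken by its symbol and is counted below with other electron carriers. Ndufa4 and its homologue Ndufa4l2 were counted with complex IV, where the Ndufa4 protein is found despite its name.

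Complexes I to IV form the respiratory chain of the inner mitochondrial membrane. Complex I takes electrons from NADH and complex II from succinate, ubiquinone carries them to complex III, cytochrome c carries them to complex IV, and oxygen receives them there. Complexes I, III and IV pump protons, and complex V, the ATP synthase, lets the protons back and makes ATP. In B cells this pathway is known to be raised when resting cells are activated. The core of complexes I, III and IV and part of complex V are encoded partly in mitochondrial DNA, and those genes are not analysed here.

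RNA was sequenced from 6 libraries of mouse spleen B lymphocytes, 3 labelled GPR40-KO and 3 labelled GPR40-WT. GPR40 is a receptor for free fatty acids encoded by Ffar1. The cells were enriched with a magnetic kit that removes other cells. The sources used here do not give the strain, age, allele or any pooling of animals. Nor do they say that replicates are separate animals, and the spread behind each p-value may therefore be technical. Ffar1 had 273, 392 and 304 counts in KO-labelled replicates 1, 2 and 3, against 0, 0 and 0 counts in the WT-labelled libraries. The targeted gene thus goes against the labels, and all directions given are between labels, whose genotypes are not verified.

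Totals lay between 14907080 and 15461425 estimated counts per library. Marker genes of B cells and of other cells a spleen holds were followed as well, with edgeR's quasi-likelihood test and with the same test that takes the replicate number as a block. Of all tested genes, 9.37% were called without the block and 20.7% with it, and 28.3% had an unadjusted p under 0.05 without it. DESeq2 called 16.4% of all its tested genes and limma on log2(FPKM + 1) called 7.78%. The summed level of the 8 B cell markers was 10450, 11360 and 10340 counts scaled to library size (CPM) in the KO-labelled replicates 1 to 3, against 4917, 7353 and 5915 CPM in the WT-labelled ones, and 4 of the 8 rose (5 with the block). The log2 fold changes of these 8 were uneven, from 0.25 to 4.46 with a median of 0.54. The 14 neutrophil markers summed to 287, 209 and 136 CPM in the KO-labelled libraries and to 6524, 1939 and 792 CPM in the WT-labelled ones, and 2 of the 14 fell (7 with the block, 14 with DESeq2). The 14 macrophage markers summed to 2994, 1609 and 2815 CPM in the KO-labelled libraries and to 7832, 3465 and 9621 CPM in the WT-labelled ones. Of these 14, 0 were called without the block, with 7 at an unadjusted p under 0.05, while 12 fell with the block, 7 with DESeq2 and 1 with limma on log2(FPKM + 1). Dendritic cell markers, which summed to 36.6 to 59.9 CPM in the KO-labelled libraries and 93.8 to 134.5 CPM in the WT-labelled ones, had 2 of 7 tested genes that fell (5 with the block). Platelet markers, at 26.8 to 72.5 CPM in the KO-labelled libraries and 76.6 to 138.8 CPM in the WT-labelled ones, had 1 of 4 that fell (3 with the block). The sums of 3 further lists overlapped between the groups. T and NK cell markers summed to 66.1 to 115.3 CPM in the KO-labelled libraries and 63.7 to 358 CPM in the WT-labelled ones, and 1 of 11 fell (5 with the block). Plasma cell markers summed to 866 to 994 CPM in the KO-labelled libraries and 903 to 1058 CPM in the WT-labelled ones, with 1 of 7 higher and 1 lower (2 and 1 with the block). Erythroid markers summed to 331 to 1548 CPM in the KO-labelled libraries and 665 to 8230 CPM in the WT-labelled ones, and 0 of 10 were called by edgeR with or without the block, by DESeq2 or by limma, with 0 at an unadjusted p under 0.05. No marker was at 0 in all 6 libraries. The part of the marker differences in the levels below was not tested, and in such bulk samples fewer cells of a type and less RNA per cell cannot be told apart.

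As a group the subunit genes were among the abundant transcripts of these cells by FPKM, and none of them differed between the labels past the threshold. Of the 84 genes, 78 had enough counts for a test. Their median level was 103.5 FPKM, a level per length and depth, against 12.9 FPKM for all 12234 tested genes. Division by length raises the FPKM of short transcripts. The median effective length implied by counts and FPKM was 401 bases for these genes, against 2673 bases for all tested genes. Of the 78, 51 were among the top 10% of tested genes, which began at 69.3 FPKM. With edgeR's quasi-likelihood test and adjusted p-values over all tested genes, 0 of 78 were called at 0.05, where 9.37% of all tested genes were called. At an unadjusted p under 0.05 there were 8 of 78 (10.3%), against 28.3% of all tested genes. DESeq2 also called 0 of 78, where it called 16.4% of all its tested genes. It found 5 of 78 (6.41%) at an unadjusted p under 0.05, a count that cannot be judged, since the share of all its tested genes was not taken. Limma on log2(FPKM + 1) called 0 of 78, where it called 7.78% of all tested genes. With the replicate number as a block 0 of 78 were called, where 20.7% of all tested genes were called. That fit had 11 of 78 at an unadjusted p under 0.05, against 33.2% of all tested genes.

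The differences were small and their intervals narrow. Of the 78 genes, 45 had a log2 fold change above 0 and 33 below 0, with a median of 0.03 against 0.01 for all tested genes. The 95% interval of the log2 fold change lay between -1 and 1 for 77 of 78 genes, against 68.1% of all tested genes. It lay within 1.5-fold in either direction for 66 of 78, against 48.0% of all tested genes. The exception to the first count was Ndufb4c, which was also the only tested member with a log2 fold change beyond 0.5 in either direction. In 11 of 78 genes (14.1%) all KO-labelled libraries were above all WT-labelled ones, against 17.5% of all tested genes. Ndufb4 was the 1 gene of 78 (1.28%) with the opposite order, against 15.9% of all tested genes. Both directions together made 12 of 78 (15.4%), against 33.4% of all tested genes.

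**Figure D1:**
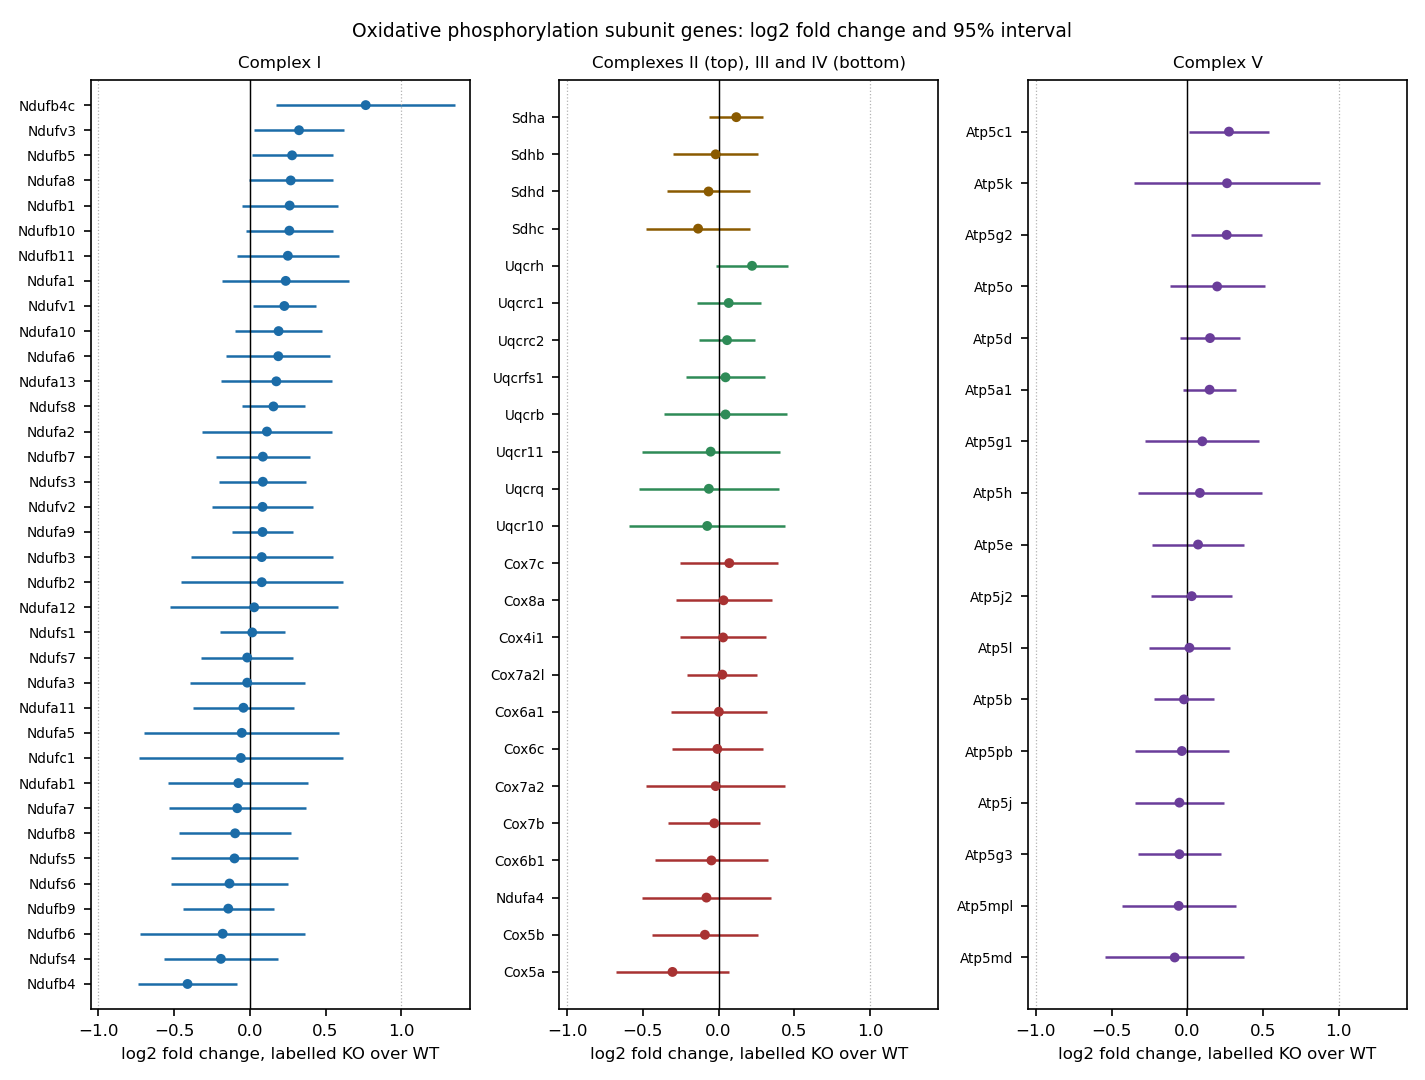
Log2 fold change of the tested subunit genes named here, KO-labelled libraries over WT, by complex. Points are edgeR estimates and bars 95% intervals (3 libraries per group). The points lie close to 0, between -0.41 for Ndufb4 and 0.77 for Ndufb4c, and every bar other than that of Ndufb4c stays between -1 and 1.

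Complex I had a median log2 fold change of 0.08 over its 37 tested genes, 23 of them above 0 and 14 below. The summed level of these genes was 1192, 1125 and 1394 CPM in the KO-labelled libraries, against 1120, 1163 and 1165 CPM in the WT-labelled ones. KO replicate 3 was the highest, and KO replicate 2 lay within the range of the WT-labelled libraries. The range of FPKM was wide, from 9.30 FPKM for Ndufa11, an accessory membrane subunit, to 379.5 FPKM for Ndufa3, a small accessory subunit. In CPM these genes lay close together. Ndufa11 averaged 21.7 CPM in the KO-labelled libraries and 22.3 CPM in the WT-labelled ones, and Ndufa3 27.0 and 27.3 CPM. Their effective lengths, implied by counts and FPKM, were 2362 bases for Ndufa11 and 72 bases for Ndufa3.

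The nuclear core subunits of complex I hold its flavin and iron-sulfur clusters. Ndufv1, which binds NADH and the flavin, had 69.3, 62.1 and 60.4 CPM in the KO-labelled libraries and 52.6, 55.3 and 55.8 CPM in the WT-labelled ones, without overlap (log2 fold change 0.23 ± 0.09, SE, edgeR adjusted p = 0.144). Ndufs8, which carries iron-sulfur clusters, had 61.9, 57.2 and 66.3 CPM in the KO-labelled libraries and 55.3, 54.0 and 57.1 CPM in the WT-labelled ones. These values did not overlap, but by a margin of less than 0.1 CPM, and the log2 fold change was 0.16 ± 0.09 (adjusted p = 0.301). The core genes Ndufv2, Ndufs1, Ndufs3 and Ndufs7 overlapped between the groups and had log2 fold changes from -0.02 to 0.09.

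Among the accessory subunits, Ndufv3, a small subunit of the NADH-oxidising module, had 25.4, 29.4 and 27.5 CPM in the KO-labelled libraries and 24.5, 20.8 and 20.3 CPM in the WT-labelled ones (log2 fold change 0.33 ± 0.13, adjusted p = 0.143). Ndufb5, of the membrane arm, had 34.0, 34.4 and 37.7 CPM in the KO-labelled libraries and 26.1, 30.6 and 30.7 CPM in the WT-labelled ones (log2 fold change 0.28, adjusted p = 0.159). The groups did not overlap for either gene. Ndufa8 and Ndufb1, also accessory subunits, did not overlap either, with log2 fold changes of 0.27 and 0.26 and adjusted p of 0.184 and 0.253. Ndufs4, an accessory subunit whose loss in mice causes a Leigh-like disease, had 22.9, 19.5 and 24.9 CPM in the KO-labelled libraries and 23.2, 30.9 and 22.7 CPM in the WT-labelled ones. Its groups overlapped, with a log2 fold change of -0.19 ± 0.16 (adjusted p = 0.486).

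The pair Ndufb4 and Ndufb4c had the smallest p-values of all members and log2 fold changes of opposite sign. Ndufb4 encodes a membrane-arm subunit of complex I and lies on the minus strand at chr16:37647170-37654453 (GRCm38, 3 exons). Ndufb4c is a copy without introns on chromosome 15, which GENCODE lists as a processed pseudogene and RefSeq as protein-coding. GENCODE's model of the copy spans 390 bases, and all 390 were identical to the spliced coding sequence of Ndufb4, with 0 mismatches. A read within them therefore fits both genes. RefSeq's model spans 485 bases, and its further 95 bases were not compared.

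Ndufb4 had 16.2, 14.9 and 16.7 CPM in the KO-labelled libraries, against 19.1, 24.2 and 20.3 CPM in the WT-labelled ones. All KO-labelled libraries were lower, with a log2 fold change of -0.41 ± 0.14 (SE, edgeR adjusted p = 0.106). Ndufb4c had 9.63, 7.12 and 12.3 CPM in the KO-labelled libraries, against 5.50, 5.39 and 6.21 CPM in the WT-labelled ones. All KO-labelled libraries were higher, with a log2 fold change of 0.77 ± 0.26 (adjusted p = 0.0971). On log2(TPM + 1) with limma, an alternative chosen after seeing the data, Ndufb4c was called (log2 difference 0.70, adjusted p = 0.0419), as 7.89% of all tested genes were.

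Both genes had estimated counts that were not whole numbers, as happens when a shared read is divided between candidate transcripts. The division between the 2 genes is therefore uncertain, and they were also summed and tested as 1 gene, an alternative chosen after seeing the data. The sum was 25.8, 22.0 and 29.1 CPM in the KO-labelled libraries, against 24.6, 29.6 and 26.5 CPM in the WT-labelled ones. These values overlapped, averaging 25.6 ± 3.53 CPM in the KO-labelled libraries and 26.9 ± 2.55 CPM in the WT-labelled ones (SD, n = 3 each). The log2 fold change of the sum was -0.07 ± 0.14 (95% interval -0.40 to 0.26, edgeR adjusted p = 0.792). The share of the sum assigned to Ndufb4c was 37.3%, 32.2% and 42.3% in the KO-labelled libraries, against 22.2%, 18.1% and 23.4% in the WT-labelled ones. These shares did not overlap, and an exact two-sided permutation test gave p = 0.1, the smallest that 3 against 3 libraries allow.

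**Figure D2:**
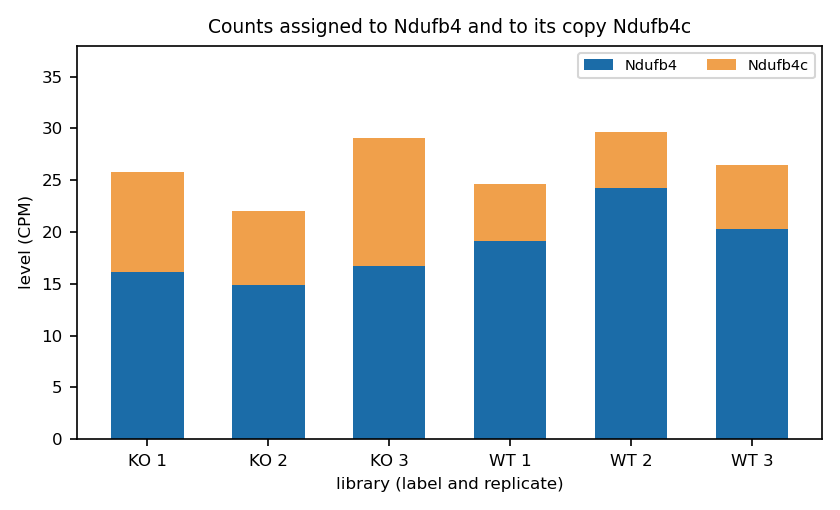
CPM assigned to Ndufb4 (blue) and to its intronless copy Ndufb4c (orange) in each library, stacked. The orange part is larger in the 3 KO-labelled libraries than in the 3 WT-labelled ones, while the whole bars overlap, between 22.0 and 29.1 CPM in the KO-labelled libraries and between 24.6 and 29.6 CPM in the WT-labelled ones.

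Complex II, which is succinate dehydrogenase and also an enzyme of the citric acid cycle, had 4 genes with log2 fold changes from -0.14 to 0.12. Sdha, the flavoprotein that oxidises succinate, had 235, 246 and 253 CPM in the KO-labelled libraries, against 224, 239 and 214 CPM in the WT-labelled ones. KO replicate 1 lay below WT replicate 2, and the log2 fold change was 0.12 ± 0.08 (adjusted p = 0.362). Sdhc, a membrane anchor, had 43.0, 41.1 and 45.9 CPM in the KO-labelled libraries and 51.9, 37.0 and 54.0 CPM in the WT-labelled ones, with overlap (log2 fold change -0.14 ± 0.15, adjusted p = 0.600). Sdhb, the iron-sulfur subunit, and Sdhd, the other anchor, had log2 fold changes of -0.02 and -0.07, and their groups overlapped as well.

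Complex III, the cytochrome bc1 complex, had a median log2 fold change of 0.05 over 8 genes, and no member passed. Uqcrh, the acidic hinge protein near the cytochrome c site, was the subunit gene with the highest FPKM of all, at 487 FPKM. It had 124, 118 and 149 CPM in the KO-labelled libraries, against 104, 117.0 and 115 CPM in the WT-labelled ones. The groups did not overlap, with WT replicate 2 just below KO replicate 2, and the log2 fold change was 0.22 ± 0.10 (adjusted p = 0.206). The core subunits Uqcrc1 and Uqcrc2 had log2 fold changes of 0.07 and 0.06, with overlap. Uqcr10 and Uqcrq, small accessory subunits, had the lowest values of the complex, -0.08 and -0.06, also with overlap.

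Complex IV, cytochrome c oxidase, had a median log2 fold change of -0.01 over 12 tested genes, 5 above 0 and 7 below. The groups overlapped for every one of these 12 genes. Cox5a, a subunit on the matrix side, had the largest difference, with 38.3, 32.1 and 49.4 CPM in the KO-labelled libraries against 51.9, 44.0 and 51.9 CPM in the WT-labelled ones. KO replicate 3 lay above WT replicate 2, and the log2 fold change was -0.30 ± 0.16 (adjusted p = 0.262). Cox4i1, the ubiquitous form of subunit 4, had the highest FPKM of the complex, at 472 FPKM, and a log2 fold change of 0.03 ± 0.13 (adjusted p = 0.902). Cox5b, Cox7c and Cox8a had log2 fold changes of -0.09, 0.07 and 0.03, and Ndufa4 -0.08.

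Several complex IV subunits exist as a broadly expressed form and a form restricted to muscle, testis or other tissues. The restricted forms were at or near 0 in these libraries and none had enough counts for a test. Cox8b, the muscle form of subunit 8, had 0, 0 and 12 counts in the KO-labelled libraries and 0, 0 and 0 counts in the WT-labelled ones. A count of 0 allows up to 3 counts, or 0.194 to 0.201 CPM at these depths. Cox7a1, the heart and muscle form of subunit 7a, had 8, 0 and 8 counts in the KO-labelled libraries and 0, 0 and 3 counts in the WT-labelled ones. Cox6b2, a testis form, had 4, 2 and 8 counts in the KO-labelled libraries and 4, 2 and 19 counts in the WT-labelled ones. Cox7b2 had 1 count and Ndufa4l2 4 counts over all 6 libraries.

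The 12 Cox8b counts stood in a library that also held muscle transcripts. The 14 skeletal muscle markers summed to 14.7, 16.4 and 1085 CPM in the KO-labelled replicates 1 to 3, against 10.2, 11.3 and 9.64 CPM in the WT-labelled ones. Of the 6 tested, Ryr1 was called higher without the block (adjusted p = 0.0486), where 9.37% of all tested genes were called. Neb was called higher with the block, where 20.7% were called. Cox7a1, in contrast, had as many counts in KO replicate 1 as in KO replicate 3. The part of muscle RNA in the other subunit genes of that library was not tested. Cox7a2l, a member of the subunit 7a family that helps join complexes III and IV into supercomplexes, made up 83.2% ± 3.52 of that family's FPKM in the KO-labelled libraries and 83.1% ± 2.31 in the WT-labelled ones (SD, n = 3 each). The rest was mostly Cox7a2, the broadly expressed form.

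Complex V had a median log2 fold change of 0.07 over 17 genes, 11 above 0 and 6 below, and no member passed. Its F1 part makes ATP on the matrix side. Atp5a1, the alpha subunit, had 510, 476 and 483 CPM in the KO-labelled libraries, against 429, 435 and 463 CPM in the WT-labelled ones. The groups did not overlap, but the difference was small, with a log2 fold change of 0.15 ± 0.08 (adjusted p = 0.250). Atp5b, the catalytic beta subunit, had 431, 417 and 447 CPM in the KO-labelled libraries, against 457, 398 and 460 CPM in the WT-labelled ones. Its groups overlapped, with a log2 fold change of -0.02 (adjusted p = 0.896). Atp5c1, the gamma subunit of the rotating stalk, had 124, 131 and 165 CPM in the KO-labelled libraries, against 111, 119 and 117.0 CPM in the WT-labelled ones. Those groups did not overlap, and KO replicate 3 stood well above the other libraries (log2 fold change 0.28 ± 0.11, adjusted p = 0.158). Atp5d and Atp5e, the delta and epsilon subunits, had log2 fold changes of 0.15 and 0.07.

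The ring of c subunits in the membrane is made from 3 genes that encode the same mature protein with different targeting sequences. Atp5g2 had 90.8, 75.8 and 95.5 CPM in the KO-labelled libraries, against 75.4, 70.9 and 72.6 CPM in the WT-labelled ones. The groups did not overlap, by a margin of less than 1 CPM, and the log2 fold change was 0.26 ± 0.10 (adjusted p = 0.138). Atp5g3 had 92.3, 95.1 and 123 CPM in the KO-labelled libraries and 100.6, 113 and 108 CPM in the WT-labelled ones, with overlap (log2 fold change -0.05 ± 0.12, adjusted p = 0.819).

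Within the c-subunit family the share of Atp5g2 was 47.6%, 41.9% and 41.6% of the summed FPKM in the KO-labelled libraries, against 40.6%, 37.9% and 38.8% in the WT-labelled ones. The share of Atp5g3 was 43.9%, 48.6% and 49.4% in the KO-labelled libraries, against 50.3%, 54.7% and 50.5% in the WT-labelled ones. Neither set overlapped between the groups, and since shares add up to a whole the 2 are not independent. An exact two-sided permutation test gave p = 0.1 for each, the smallest that the design allows. Atp5g1 made up 9.06% ± 0.52 in the KO-labelled libraries and 9.08% ± 1.59 in the WT-labelled ones (SD, n = 3 each).

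The small membrane subunits Atp5k, Atp5l, Atp5md and Atp5mpl had log2 fold changes between -0.08 and 0.26, and their groups overlapped. Atp5k, subunit e, had 11.7, 9.78 and 20.03 CPM in the KO-labelled libraries, against 11.9, 10.6 and 12.02 CPM in the WT-labelled ones. Here KO replicate 3 alone was high and the other two KO-labelled libraries lay within or below the range of the WT-labelled ones.

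**Figure D3:**
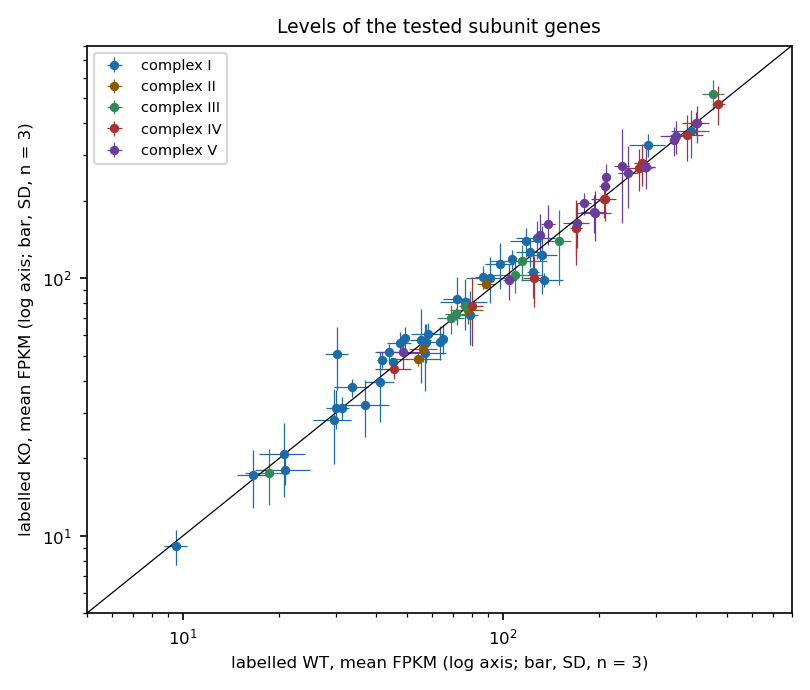
Mean FPKM of each of the 78 tested subunit genes in the 3 KO-labelled libraries (vertical) against the 3 WT-labelled ones (horizontal), both on log axes, with SD as bars. The points run along the line of equal levels from Ndufa11 at 9.30 FPKM to Uqcrh at 487 FPKM (means of all 6 libraries), and Ndufb4c stands above the line at 50.6 FPKM in the KO-labelled libraries and 30.3 FPKM in the WT-labelled ones.

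Across complexes the larger pattern was that of a single library. The KO-labelled replicate 3 had the highest level of the 6 for 57 of 78 subunit genes (73.1%), against 17.7% of all tested genes, and the lowest for 0 of 78. It lay above both other KO-labelled libraries for 68 of 78. Relative to each gene's mean over the 6 libraries, the median subunit gene stood at -0.07, -0.12 and 0.23 on the log2 scale in the KO-labelled replicates 1, 2 and 3, against -0.04, -0.06 and 0.04 in the WT-labelled ones. The KO-labelled group therefore held both the lowest and the highest library. In complexes I, III, IV and V the median in KO replicate 3 was between 0.23 and 0.25, above every other library. Complex II was the exception, where it was 0.07 in KO replicate 3 and 0.19 in WT replicate 3.

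**Figure D4:**
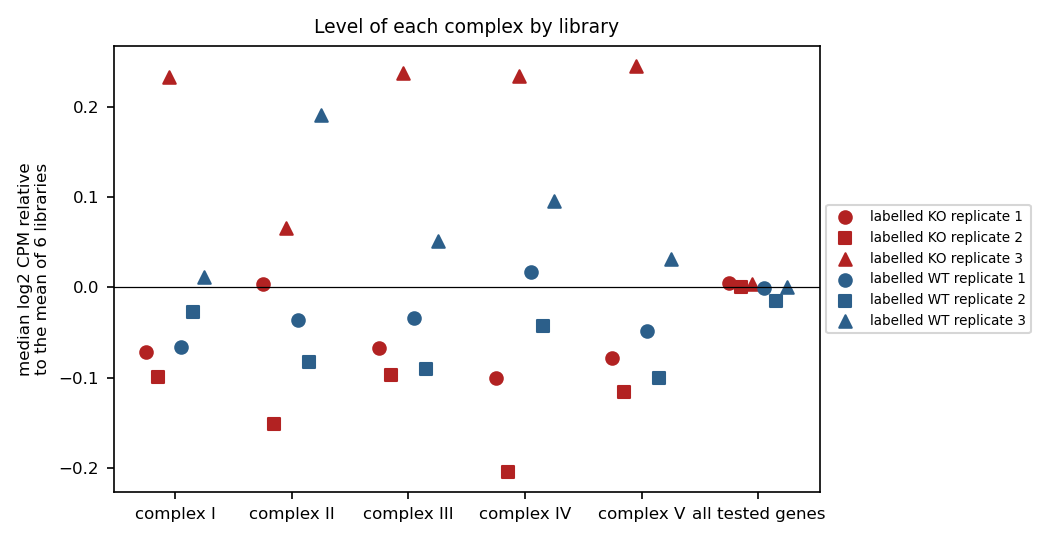
Median over the tested genes of each complex, and over all 12234 tested genes, of log2 CPM relative to the gene's mean over the 6 libraries. Red symbols are the KO-labelled libraries, blue the WT-labelled ones, and symbol shapes mark replicates. KO replicate 3 stands between 0.23 and 0.25 in complexes I, III, IV and V, while the medians of all tested genes stay near 0.

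The sign of the median rested on this library. Without KO replicate 3 the median log2 fold change of the 78 genes was -0.08, where it was 0.03 with all libraries, and 0 members were called. The summed level of all tested subunit genes was 4919, 4684 and 5632 CPM in the KO-labelled libraries, against 4778, 4788 and 4990 CPM in the WT-labelled ones. Their means of 5078 ± 494 CPM in the KO-labelled libraries and 4852 ± 120 CPM in the WT-labelled ones differed by less than the SD of the KO-labelled libraries (n = 3 each).

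Most subunit genes have short transcripts, and the height of KO replicate 3 went with length. The effective length implied by counts and FPKM had a median of 401 bases over the tested subunit genes, against 2673 bases over all tested genes, and was under 1000 bases for 63 of 78. Log2 CPM in KO replicate 3 minus the mean of KO replicates 1 and 2 had a median of 0.41 for the 47 subunit genes under 500 bases. It was 0.22 for the 16 genes from 500 to 1000 bases, 0.12 for the 11 from 1000 to 2000 bases and 0.12 for the 4 over 2000 bases. The other tested genes ran the same way, with medians of 0.25, 0.18, 0.06 and -0.06 in these 4 classes. In each class the subunit genes were thus higher than the other genes, a difference that was not tested. Over all 6 libraries the median log2 fold change by length class lay between 0.00 and 0.07 for subunit genes and between -0.01 and 0.03 for other genes. The part of transcript length in the level of that library was not tested.

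**Figure D5:**
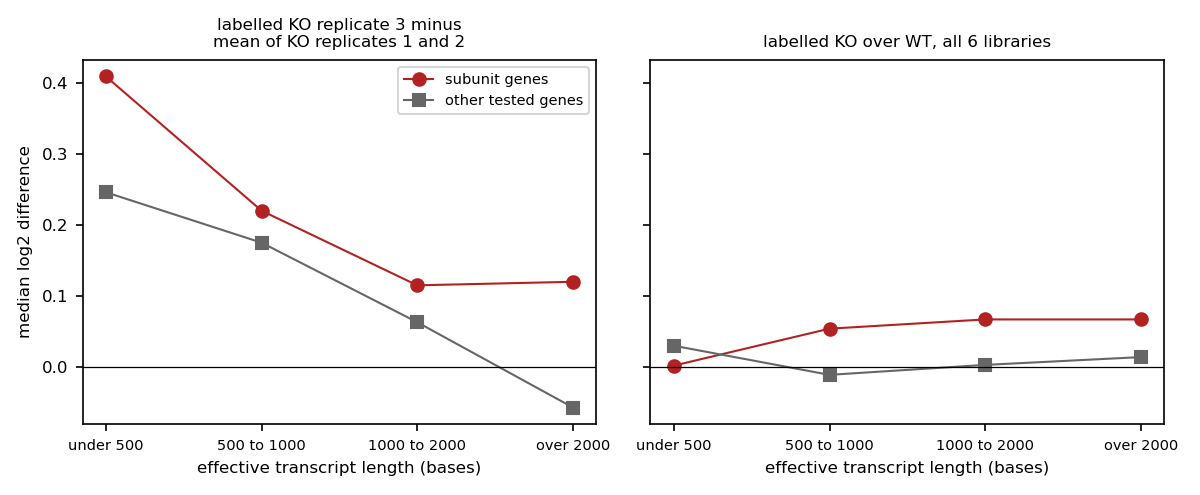
Median log2 difference by effective transcript length for the subunit genes (red) and the other tested genes (grey). On the left is the KO-labelled replicate 3 minus the mean of KO replicates 1 and 2, which falls with length from 0.41 to 0.12 in subunit genes and from 0.25 to -0.06 in other genes. On the right are all 6 libraries, labelled KO over WT, where the medians stay between -0.01 and 0.07.

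Transcript use within the subunit genes was mostly simple. In 64 of 78 genes a single transcript held over 90% of the counts, and 14 had at least 2 transcripts at 10% or more. Among these 14, the share of the major transcript did not overlap between the groups in 3 genes, Ndufb8, Ndufs8 and Atp5j, each with p = 0.1 in an exact two-sided permutation test, the smallest possible. Of all 6131 tested genes with at least 2 such transcripts, 11.2% did not overlap, and 14 genes are too few to set the subunit genes apart. For Ndufb8, an accessory subunit of complex I, the minor transcript took 17.0%, 19.4% and 25.4% of the counts in the KO-labelled libraries, against 7.74%, 15.7% and 15% in the WT-labelled ones. For Atp5c1 the minor transcript took 7.81%, 8.67% and 18.5% in the KO-labelled libraries, against 20.7%, 18.5% and 22.7% in the WT-labelled ones. KO replicate 3 and WT replicate 2 were nearly equal there. Counts per transcript are estimates.

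Promoters were examined because many of these genes are known targets of the same transcription factors, NRF1, GABPA and other ETS factors, YY1 and the oestrogen-related receptor ERRalpha. RefSeq promoter windows (GRCm38.p6, 250 bases before to 50 after the start) were at hand for 69 of the 84 genes, with 74 windows in all, and a gene was counted when any of its windows held a match. The letters searched on both strands were the core of the NRF1 motif, which stands in capitals in the windows below, and CCGGAAG for ETS factors, AANATGGC for YY1 and TNAAGGTCA for ERRalpha, and a window could hold more than one of them. NRF1 letters were found in 17 of 69 genes (24.6%), against 5.19% of 27025 genes. ETS letters were found in 17 (24.6%) against 9.93%, and YY1 letters in 17 (24.6%) against 6.96%. ERRalpha letters were found in 3 (4.35%) against 1.43%, and any of the 4 in 44 (63.8%) against 20.6%. Counted by window, any of the 4 was found in 60.8% of the 74 windows and in 18.6% of all 32851 windows. The comparison genes were all those with a window, tested here or not, and were not matched for level or base content. A match is a description of the letters and not a site shown to be bound. The windows of Ndufb4, Sdhd and Cox6a1 are shown as those that hold several matches, in capitals, on the strand of the gene. They stand for complexes I, II and IV, and matches on the opposite strand appear as the reverse complement.
Ndufb4 (chr16:37654319-37654618, minus strand, 3 NRF1 and 1 ERRalpha match): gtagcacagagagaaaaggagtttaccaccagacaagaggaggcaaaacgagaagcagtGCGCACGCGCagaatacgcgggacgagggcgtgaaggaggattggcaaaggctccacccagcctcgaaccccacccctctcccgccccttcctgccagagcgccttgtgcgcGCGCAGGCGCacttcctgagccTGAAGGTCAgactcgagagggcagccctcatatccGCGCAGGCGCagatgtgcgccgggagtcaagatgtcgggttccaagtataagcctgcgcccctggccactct
Sdhd (chr9:50603800-50604099, minus strand, 1 NRF1, 1 ETS and 1 ERRalpha match): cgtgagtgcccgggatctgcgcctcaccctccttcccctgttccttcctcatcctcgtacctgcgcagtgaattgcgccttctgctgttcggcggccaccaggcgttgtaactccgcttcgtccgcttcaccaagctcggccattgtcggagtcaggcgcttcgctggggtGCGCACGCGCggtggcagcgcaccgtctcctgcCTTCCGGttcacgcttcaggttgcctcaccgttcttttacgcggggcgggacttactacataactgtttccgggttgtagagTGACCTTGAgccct
Cox6a1 (chr5:115348909-115349208, minus strand, 2 NRF1 and 1 ETS match): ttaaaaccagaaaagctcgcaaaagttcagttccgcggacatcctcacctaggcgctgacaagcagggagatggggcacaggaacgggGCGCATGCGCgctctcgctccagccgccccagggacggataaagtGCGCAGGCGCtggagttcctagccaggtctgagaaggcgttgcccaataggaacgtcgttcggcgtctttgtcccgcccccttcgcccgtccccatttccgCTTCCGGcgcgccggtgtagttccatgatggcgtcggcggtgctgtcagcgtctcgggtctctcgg

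The transcription factors named above were measured too, and none passed. Nrf1 averaged 80.0 ± 5.06 CPM in the KO-labelled libraries and 73.3 ± 1.15 CPM in the WT-labelled ones (SD, n = 3 each, log2 fold change 0.13, adjusted p = 0.353). Gabpa averaged 103.5 CPM in the KO-labelled libraries and 98.7 CPM in the WT-labelled ones, and the groups of both genes overlapped. Yy1 averaged 199.9 CPM in the KO-labelled libraries and 182 CPM in the WT-labelled ones, without overlap (log2 fold change 0.13, adjusted p = 0.280). Esrra, which encodes ERRalpha, had 48.6, 53.9 and 49.0 CPM in the KO-labelled libraries, against 40.0, 36.9 and 45.1 CPM in the WT-labelled ones. Its groups did not overlap either, with a log2 fold change of 0.31 ± 0.11 (adjusted p = 0.108). Of all tested genes, 17.5% were higher in the KO-labelled libraries without overlap. The coactivator gene Ppargc1a was low, at 2.86 CPM in the KO-labelled libraries and 2.64 CPM in the WT-labelled ones.

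Other genes of mitochondrial energy supply gave few calls. Tested here were 16 assembly factors of complex I, 34 of complexes II to V and 18 citric acid cycle genes. With them came 21 regulators, 25 import genes and 11 other electron carriers, counting Cyc1 of complex III. Without the block, edgeR's quasi-likelihood test called 0 of these 125 genes, where it called 9.37% of all tested genes. It gave 9 of the 125 an unadjusted p under 0.05, against 28.3% of all tested genes. DESeq2 called 3 of them (Sqor, Polg2 and Hspa9), where it called 16.4% of all its tested genes. Limma on log2(FPKM + 1) called 1 (Polg2), against 7.78% of all tested genes. The block gave 4 calls among the 125, against 20.7% of all tested genes. The 6 lists' median log2 fold changes were 0.20, 0.05, 0.08, 0.12, 0.02 and 0.05, in that order. With the replicate block Polg and Polg2, the subunits of the mitochondrial DNA polymerase, were called higher (log2 fold changes 0.29 and 0.88, blocked adjusted p = 0.0358 and 0.0371). Sqor, which passes electrons from sulfide to ubiquinone, was called lower with the block (log2 fold change -1.68, blocked adjusted p = 0.0051, against 0.109 without it), as was the import chaperone Hspa9 (-0.26, blocked adjusted p = 0.0443). Sqor had 6.60, 3.06 and 9.65 CPM in the KO-labelled libraries, against 32.8, 11.3 and 17.9 CPM in the WT-labelled ones, without overlap. The summed neutrophil and macrophage markers were also lower in all KO-labelled libraries, and their part in the level of Sqor was not tested. Atpif1, the inhibitor of ATP synthase, had a log2 fold change of -0.52 ± 0.22 and passed with the block (adjusted p = 0.0245, against 0.168 without it) and without WT replicate 2 (adjusted p = 0.0387).

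For the lists that follow, 9.37% of all tested genes were called in either direction without the block and 20.7% with it. Of 82 mitochondrial ribosome genes, 1 rose and 0 fell, with a median of 0.05. The riser was Mrps16, with 28.2, 26.8 and 29.9 CPM in the KO-labelled libraries, against 22.2, 18.4 and 19.4 CPM in the WT-labelled ones (log2 fold change 0.50 ± 0.13, adjusted p = 0.0439). That call was lost when any library other than WT replicate 1 was left out, with adjusted p up to 0.125. The block added Mrps18b as lower (blocked adjusted p = 0.0316). Glycolysis, the other source of ATP, had 1 gene of 21 that rose and 2 that fell, with a median of -0.19. Aldoc, an aldolase, rose (log2 fold change 1.22 ± 0.19, adjusted p = 0.00808). Pgam1, a phosphoglycerate mutase, fell (-0.62 ± 0.11, adjusted p = 0.0151), and so did Hk3, a hexokinase of myeloid cells (-2.18 ± 0.27, adjusted p = 0.00706). The call of Pgam1 was lost without KO replicate 1 (adjusted p = 0.0600) and without KO replicate 2 (adjusted p = 0.0797), and that of Aldoc without KO replicate 2 (adjusted p = 0.0556). With the block 1 of the 21 glycolysis genes was higher and 7 were lower, where 20.7% of all tested genes were called. Of 43 cytosolic ribosomal protein genes 3 rose, Rpl4, Rpl38 and Rpsa (log2 fold changes 0.37, 0.46 and 0.33), and 0 fell. Their median was 0.24, and 9.37% of all tested genes were called. With the block 13 of the 43 rose and 0 fell, where 20.7% of all tested genes were called.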

How the data were processed

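RNA from 3 libraries labelled KO and 3 labelled WT was measured by paired-end sequencing of oligo(dT)-captured mRNA on a BGISEQ-500, per the labels' protocols, which state no strand-marking step. The authors deposited estimated counts per gene and per transcript that are not scaled to depth, per the file headers, and 5.87% of the gene values were not whole. FPKM, which divide by length and depth, and TPM, which sum to a constant, were also deposited by the authors, per the file headers. Tools named without roles in the submitters' processing notes are HISAT2 2.0.4, Bowtie2 2.2.5 and RSEM 1.3.1, and the build is mm10. There were 24 more per-library columns, left unused. Reads from antisense neighbours cannot be separated without strand.

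Estimated counts were rounded and filtered with filterByExpr, which left 12234 of 16511 genes, scaled with TMM factors and tested with edgeR 4.0.16 (robust quasi-likelihood F-test on the label, Benjamini-Hochberg over all tested genes, threshold 0.05). Unless another test is named, adjusted p-values are from this one, and CPM are counts scaled to TMM-adjusted totals. DESeq2 1.42.0 and limma 3.58.1, on log2(FPKM + 1) and log2(TPM + 1), were alternatives. Effective length was derived from counts and FPKM. Floors cover counting error only, since no molecular identifiers mark independent molecules. Same-numbered libraries deviated together, with correlations across genes of 0.133, 0.362 and 0.170 for replicates 1, 2 and 3. The labels do not say what the number marks, so this pairing comes from the data, and a second fit took the number as a block. The procedures were tested on simulated counts.

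The subunit genes and the other gene lists were chosen with earlier results of these data known. Genes described were, in each complex, the 3 of smallest p, the 2 of largest change in each direction and the 2 of highest FPKM, with the restricted isoforms and up to 3 genes of smallest p per other list. The core subunits Ndufv1, Ndufv2, Ndufs1, Ndufs3, Ndufs7 and Ndufs8, and Ndufa4, Ndufa8, Ndufa11, Ndufb5, Ndufb8, Atp5b, Atp5d, Atp5g1, Atp5g3, Atpif1, Cox7a2 and Cox6b1, were added after their values were seen, as were transcription factors other than Esrra. All 84 genes matched RefSeq identifiers. A subunit gene that this rule names and the coding sequence of the Ndufb4 pair are not reported here.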

Additional observations from a re-analysis of the deposited data

How the results depend on the processing

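No subunit gene was called under edgeR with DESeq2 size factors, without scaling factors, without the low-count filter, with each library left out in turn, with the replicate block, under DESeq2 or with limma on log2(FPKM + 1), which called 7.78% of all tested genes. Limma on log2(TPM + 1), added after seeing the data, called 1 higher (Ndufb4c). All tested genes gave 1146 calls, 2535 with the replicate block, 2210 with DESeq2, and between 264 and 2030 with 1 library left out. The replicate block changed no call of a subunit gene, and left the median of the subunit genes at 0.02. Leaving out 1 library, that median ranged from -0.08 to 0.09, and it was -0.004 with limma on log2(FPKM + 1). Without KO replicate 3 and WT replicate 1 together, added after seeing the data, it was -0.10, with -0.07 for complex I and -0.12 for complex III, and the cause was not tested. The median of every complex also changed sign when 1 library was left out. It ranged from -0.037 to 0.146 in complex I, -0.080 to 0.052 in complex II and -0.066 to 0.095 in complex III. In complex IV the range was -0.133 to 0.059, and in complex V -0.044 to 0.121. Limma also called Mrps18b lower, on FPKM (adjusted p = 0.0413) and on TPM (adjusted p = 0.0338). Counting Ndufa4 and Ndufa4l2 with complex I could change no count of calls, since neither gene was called.

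Genes with log2 fold changes near 0 changed sign in places. Leaving out 1 library, values ranged from -0.073 to 0.020 for Atp5b, -0.006 to 0.175 for Atp5e, -0.008 to 0.239 for Atp5g1, -0.193 to 0.026 for Atp5g3, -0.101 to 0.450 for Atp5k, -0.114 to 0.080 for Atp5l, -0.262 to 0.038 for Atp5md, -0.140 to 0.068 for Atp5mpl and -0.049 to 0.155 for Cox4i1. They ranged from -0.233 to 0.051 for Cox5b, -0.206 to 0.067 for Cox6b1, -0.265 to 0.142 for Cox7a2, -0.047 to 0.112 for Cox7a2l, -0.083 to 0.149 for Cox7c, -0.118 to 0.121 for Cox8a, -0.161 to 0.048 for Ndufa11, -0.194 to 0.093 for Ndufa3 and -0.315 to 0.078 for Ndufa4. For the rest they ranged from -0.304 to 0.030 for Ndufb8, -0.037 to 0.093 for Ndufs1, -0.139 to 0.046 for Ndufs7, -0.003 to 0.209 for Ndufv2, -0.094 to 0.084 for Sdhb, -0.154 to 0.021 for Sdhd, -0.356 to 0.095 for Uqcr10, -0.008 to 0.124 for Uqcrc1 and -0.262 to 0.067 for Uqcrq. Without KO replicate 3 and WT replicate 1 together the values were -0.038 for Uqcrc2, -0.068 for Cox7c, -0.135 for Cox8a, -0.070 for Cox4i1, -0.090 for Cox7a2l, -0.083 for Atp5k, -0.099 for Atp5l, -0.076 for Atp5e, -0.070 for Ndufs1 and -0.016 for Atp5g1. Without scaling factors Atp5l and Ndufs1 were at -0.003 each. With limma, Atp5l was at -0.023 on FPKM and -0.020 on TPM, Cox4i1 at -0.009 and -0.006, and Ndufs1 at -0.005 and -0.003, and Cox8a was at -0.003 on FPKM.

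With 3 libraries per label no exact test of a single share can go below p = 0.1. Short transcripts and few counts limit the smallest genes, such as Atp5k, and the split of identical reads limits Ndufb4 and Ndufb4c.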
